A study of Mus musculus with 12 samples.

Results

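The comparison described here is the genotype by injury interaction in murine hip cartilage: for each probe, the change post injury in mice lacking Mapk9 minus the change post injury in WT mice. Each change was taken within a pair, as the injured array minus the control array of the same genotype and replicate number, which gave 3 paired differences per genotype. All 12 of the 12 arrays and all 21004 probes of the normalized table entered, and these probes carry 15434 gene symbols. A positive interaction means that the injured level, relative to control, was higher in Mapk9 KO than in WT, and a negative one that it was lower. All values are on a log2 scale, on which 1 unit is a doubling of signal.

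Mapk9 encodes c-Jun N-terminal kinase (JNK) 2, a stress-activated kinase that phosphorylates c-Jun and other parts of the AP-1 transcription factor. Mechanical injury of cartilage switches on stress kinases within minutes, and early response genes, cytokines and matrix proteases follow. An interaction asks whether a gene's response to injury depended on the genotype, which neither the injury effect nor the genotype effect answers alone.

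All arrays held RNA from hip cartilage of C57BL6 mice aged 4 to 6 weeks. For WT mice there were 3 control and 3 injured arrays, and for mice lacking Mapk9 (Mapk9 KO) likewise 3 control and 3 injured arrays. Injury was the avulsion of the femoral epiphysis, after which the injured hips were cultured for 4 h in serum-free medium, whereas control hips were snap-frozen, so injury and culture cannot be told apart in either genotype. Per the study's methods, a replicate combined 6 hips of 3 animals and the 3 replicates of control and of injured cartilage were independent, although these methods do not name the Mapk9 KO arrays. How the Mapk9 KO was made is not given in the sources used here.

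Before the results, 3 features of the arrays need stating. Between 17248 and 18530 probes of the table were detected (detection p under 0.05) on the WT arrays and between 16833 and 18145 on the Mapk9 KO arrays. Chondrocyte genes were abundant in every group, with a mean over 20 matrix and identity genes of 10.40 to 10.97 in WT control and 10.26 to 10.89 in Mapk9 KO control arrays. Skeletal muscle genes were also abundant in the controls, and unequally so: the mean over 25 genes was 9.97 to 12.31 in WT control and 12.33 to 12.60 in Mapk9 KO control arrays. The pools also differed in sex-linked transcripts. A probe for Xist, which is transcribed from the inactive X chromosome, read 9.75 to 10.77 on the 6 Mapk9 KO arrays, but 10.37, 3.24 and 6.89 on the WT control arrays and 4.97, 5.95 and 6.96 on the WT injured arrays, so WT pair 1 differed by -5.40 at this probe. Ddx3y, which is Y-linked, read between 10.09 and 12.83 on all arrays.

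Most of the response to injury was shared. Across all probes, the mean change in Mapk9 KO correlated with that in WT with a Pearson r of 0.863 and a Spearman rho of 0.775 (a description across probes, which are not independent), and the slope was 1.03. Single pairs correlated between 0.726 and 0.793 within WT, between 0.865 and 0.898 within Mapk9 KO, and between 0.678 and 0.830 across genotypes. With more than a doubling or halving of signal and a limma adjusted p below 0.05, injury modulated 3186 probes (15.2%) in WT and 3917 (18.6%) in Mapk9 KO. Of the probes upregulated in WT, 1311 were also upregulated in Mapk9 KO, which is 81.8% of the 1603 in WT (7.63% of all probes) and 65.2% of the 2012 in Mapk9 KO (9.58%). Of the downregulated probes, 1145 were shared, which is 72.3% of the 1583 in WT (7.54%) and 60.1% of the 1905 in Mapk9 KO (9.07%).

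The 5 largest average rises among probes detected on all arrays were as follows. Ccl4, a chemokine, changed by 5.31 ± 0.23 (SD, n = 3) in WT and 5.55 ± 0.37 in Mapk9 KO, with an interaction of 0.24 ± 0.25 (SE). Cd14, the lipopolysaccharide co-receptor, changed by 5.01 and 5.33. Inhba, which encodes the activin A subunit, changed by 4.93 and 4.81, and Hdc, the enzyme that makes histamine, by 5.02 and 4.60. Trib3, a stress-induced pseudokinase, changed by 4.17 and 4.81, with an interaction of 0.64 (unadjusted p = 0.0421, limma). None of these 5 had an interaction past an adjusted p of 0.05. The 5 largest average falls were in 4 genes with muscle isoforms or muscle expression, Ttn, Ckmt2, Actn3 and Cox7a1, and in an unnamed transcript listed as scl000959.1_2, and were larger in Mapk9 KO, with interactions of -1.82, -1.77, -1.55, -2.35 and -0.73. Cox7a1 passed among probes detected on all arrays (adjusted p = 0.0127, limma).

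**Figure D1:**
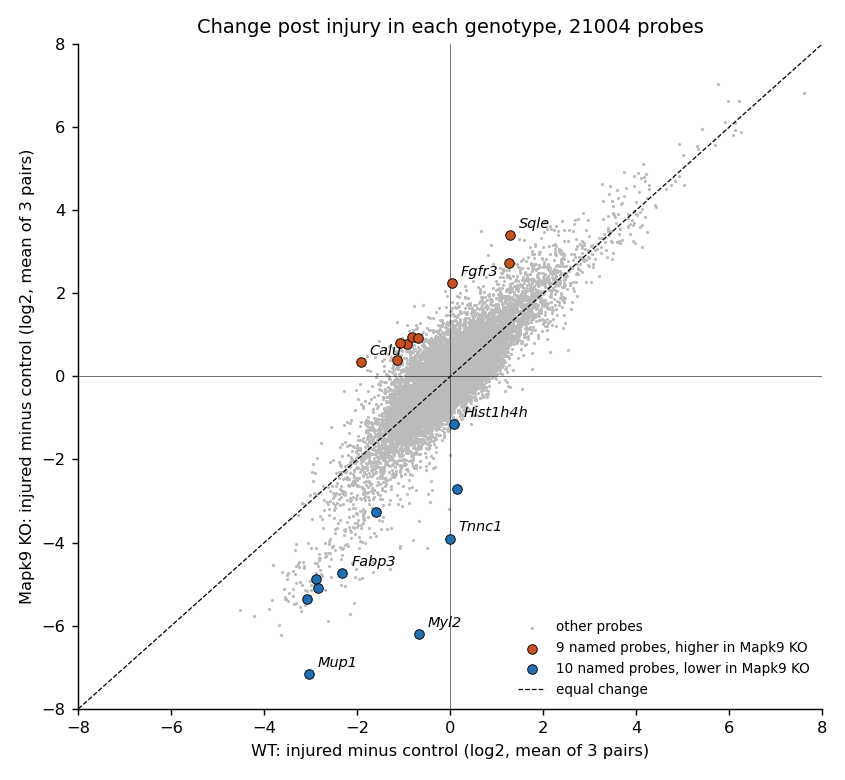
Mean change post injury in WT (x axis) and in Mapk9 KO (y axis), log2, for 21004 probes, each the mean of 3 pairs. The dashed line marks equal change, and the 19 probes named for the interaction are coloured: the 9 higher ones lie above the line and the 10 lower ones below it.

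No probe passed an adjusted p of 0.05 for the interaction in the paired limma fit (0 of 21004, 0.00%). The smallest adjusted p was 0.0535 and was shared by 36 probes, and the methods' t-test with the same adjustment called 1. At an unadjusted p under 0.05, 3149 probes (15.0%) remained, of which 1796 (8.55%) were higher and 1353 (6.44%) lower in Mapk9 KO. The 3 Mapk9 KO differences lay wholly above or below the 3 WT differences for 4541 probes (21.6%).

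The count depended on how dim probes and replicates were treated. Among the 13973 probes detected on all 12 arrays, 222 (1.59%) passed, 168 of them higher (1.20%, 148 genes) and 54 lower (0.386%, 52 genes). With the replicate number as a block over both genotypes, 112 probes (0.533%) passed, 102 higher (0.486%) and 10 lower (0.0476%), and 53 were shared with the former set. Under the filter on detection, no probe passed without Mapk9 KO pair 1 or without Mapk9 KO pair 3, and without WT pair 3 the balance turned to 36 higher and 56 lower. Without WT pair 3 and without the filter, 114 probes passed, 20 higher and 94 lower.

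The changes behind the 168 higher and the 54 lower probes were unlike. For the higher ones the median change was -0.43 in WT and 0.85 in Mapk9 KO, and for the lower ones it was -0.43 and -1.87. Their median signal over all arrays was 7.95 and 9.52, against 8.72 for all probes detected on every array.

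Genes were named, 9 higher and 10 lower, by the smallest unadjusted p among probes detected on all arrays of at least 1 group whose paired differences did not overlap; none passed the adjusted p in the paired fit. Under the replicate block over both genotypes, 8 of the 9 higher and 3 of the 10 lower ones had a limma adjusted p under 0.05, and so did, under the filter on detection, the 3 higher and 6 lower ones that all arrays detected. Calu encodes calumenin, a calcium-binding protein of the endoplasmic reticulum. Its probe read 7.98, 6.70 and 7.72 on the WT control arrays, 6.18, 4.79 and 5.64 on the WT injured arrays, 7.22, 6.55 and 7.20 on the Mapk9 KO control arrays and 7.70, 6.58 and 7.74 on the Mapk9 KO injured arrays. The signal was thus lower on every injured WT array than on its control, and at or above control in each Mapk9 KO pair. The interaction was 2.28 ± 0.22 (SE, 3 pairs per genotype, adjusted p = 0.0535, limma), and it was 1.86 with values under the detection limit of each array set to that limit, since the probe was detected on only 1 WT injured array.

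Fgfr3 encodes the fibroblast growth factor receptor that restrains chondrocyte proliferation in the growth plate. It read 7.93, 6.60 and 7.27 in WT control, 7.90, 6.67 and 7.34 in WT injured, 6.58, 5.65 and 5.97 in Mapk9 KO control and 8.60, 7.67 and 8.65 in Mapk9 KO injured arrays. The WT pairs differed by -0.04, 0.07 and 0.06 and the Mapk9 KO pairs by 2.02, 2.02 and 2.68, so only the Mapk9 KO arrays separated. The upregulation in Mapk9 KO passed on its own (2.24 ± 0.38, SD, n = 3, adjusted p = 2.45e-05, limma), and the interaction was 2.21 ± 0.24 (adjusted p = 0.0535, limma).

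Sqle encodes squalene epoxidase, a rate-limiting enzyme of cholesterol synthesis, and its probes disagreed. The first 30 bases of each 50-base probe are shown 5′ to 3′ as deposited, with the number of the probe's start within its source transcript.
Sqle probe at 1080: gcagctacctcagtgtcgacctcgttcgtg
Sqle probe at 2223: ctgtattttaaacttggtggagagtgtgtg
At 1080, the paired differences were 1.45, 1.35 and 1.05 in WT and 3.45, 3.02 and 3.73 in Mapk9 KO, with an interaction of 2.12 ± 0.25. No Mapk9 KO control array detected this probe, and with values under the detection limit set to it the interaction was 1.79. At 2223, where all arrays detected the probe, the differences were 1.40, 1.96 and 1.81 in WT and 2.20, 1.89 and 2.18 in Mapk9 KO, with an interaction of 0.37 ± 0.23 (unadjusted p = 0.141, limma). Sqle was upregulated post injury in both genotypes at both probes, and the genotypes were apart at the upstream probe alone.

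Rab7, a GTPase of late endosomes, had differences of -0.72, -0.82 and -0.92 in WT and 1.25, 0.76 and 0.81 in Mapk9 KO at a probe that starts at 59, with an interaction of 1.76 ± 0.22. Its probe at 1764 had an interaction of 0.16. Calu, likewise, had interactions of 0.07 and -0.27 at probes that start at 2725 and 2746, against 2.28 at 1086, although the array annotation places these probes on different transcript records.

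Ppp1cb encodes a catalytic subunit of protein phosphatase 1. Its probes are shown because they are nearly the same sequence, and capitals mark the bases that lie in both probes.
Ppp1cb probe at 868: gCTAAACGACAGTTGGTAACCTTATTTTCT
Ppp1cb probe at 869: CTAAACGACAGTTGGTAACCTTATTTTCTG
These probes overlap by 49 bases, so they are not independent of each other. The probe at 869 read 9.07, 8.44 and 8.91 in WT control, 8.01, 7.28 and 7.71 in WT injured, 8.70, 7.89 and 8.99 in Mapk9 KO control and 9.13, 8.40 and 9.26 in Mapk9 KO injured arrays. The 3 WT pairs all went down, with differences of -1.06, -1.16 and -1.20, and the 3 Mapk9 KO pairs all went up, with 0.43, 0.51 and 0.27. The interaction was 1.54 ± 0.19 at 869 and 1.75 ± 0.26 at 868.

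Hnrpk (now Hnrnpk), an RNA-binding protein, read 10.27, 9.26 and 9.73 in WT control and 9.56, 8.19 and 8.68 in WT injured arrays, and 9.65, 9.05 and 9.71 in Mapk9 KO control and 10.65, 9.67 and 10.43 in Mapk9 KO injured arrays. Its interaction was 1.72 ± 0.22 at 502 and -0.25 at 1666 of the same transcript record. A probe that starts at base 1 of another record, also detected on all arrays, had 0.37 ± 0.20 (unadjusted p = 0.101, limma). Tspyl1, of the nucleosome assembly protein family, had an interaction of 1.62 ± 0.21, with differences of -0.52, -0.83 and -0.74 in WT and 1.13, 0.76 and 0.88 in Mapk9 KO. Prosc (now Plpbp), which binds pyridoxal phosphate, had an interaction of 1.89 ± 0.24. No WT injured array detected Prosc, and with dim signals set to the detection limit its interaction was 1.14. The transcript listed as scl0003886.1_50 had an interaction of 1.45 ± 0.19, or 0.79 with values set to the limit, as no Mapk9 KO control array detected it.

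**Figure D2:**
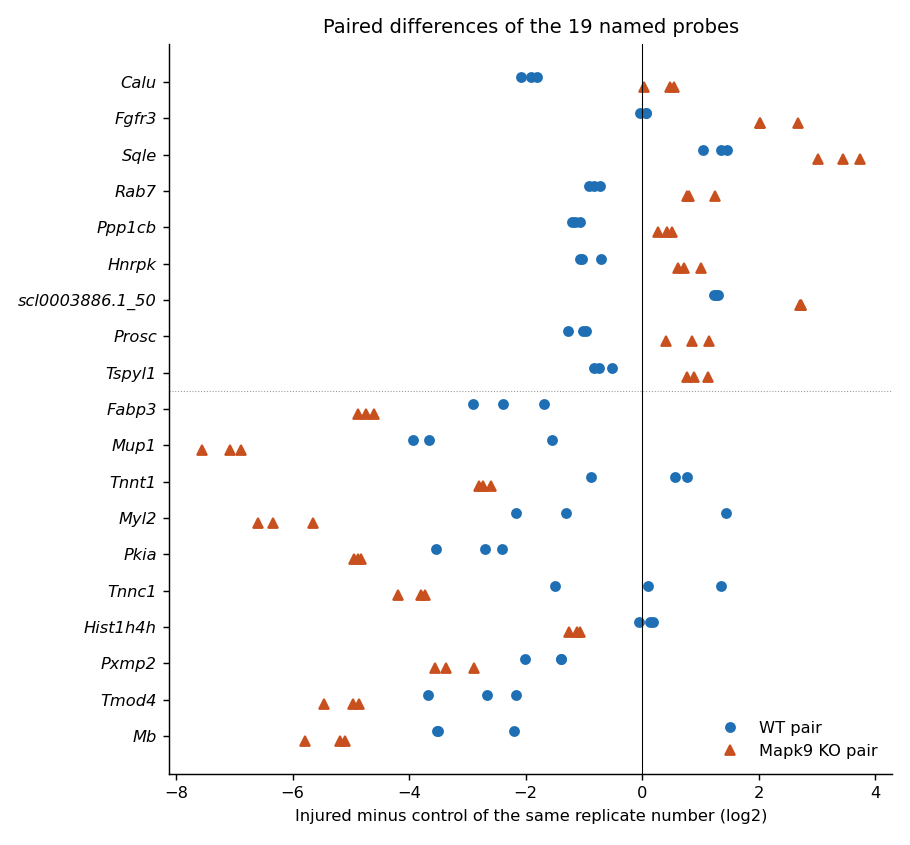
Each row is 1 of the 19 named probes, and each point is 1 pair, injured minus control of the same replicate number (log2; circles WT, triangles Mapk9 KO). The genotypes do not overlap in any row because the rule required it, and the WT pairs of the muscle genes Myl2, Tnnt1 and Tnnc1 lie on both sides of 0.

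D130059O18Rik, a transcript known by its clone name, was the 1 probe that passed the injury threshold in opposite directions. It read 8.48, 8.13 and 8.25 in WT control and 8.09, 6.37 and 6.98 in WT injured arrays, and 7.32, 6.84 and 6.87 in Mapk9 KO control and 8.65, 7.46 and 8.85 in Mapk9 KO injured arrays. It was downregulated by 1.14 on the log2 scale in WT (mean difference -1.14 ± 0.69, SD, adjusted p = 0.0161, limma) and upregulated by 1.31 ± 0.68 in Mapk9 KO (adjusted p = 0.00706, limma). The interaction was 2.45 ± 0.42 with an adjusted p of 0.0653 in the paired fit (limma). That adjusted p was 0.0336 with the replicate block over both genotypes and 0.0127 among probes detected on all arrays (limma). Counting signs alone, every WT pair and every Mapk9 KO pair went opposite ways for 658 probes (3.13%), and in 441 of them (2.10%) WT went down and Mapk9 KO up.

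The position of a probe within its transcript moved with the positive interactions. For 754 transcripts, the table holds at least a pair of probes that start 500 or more bases apart and were detected on all arrays, with a median distance of 1310 bases. The median interaction was 0.15 at the upstream probe and -0.029 at the downstream probe, and the upstream value was the higher one in 518 transcripts (68.7%). Of the 168 higher calls under the filter on detection, 37 were upstream probes of these transcripts and 9 were downstream probes. Among the 37, the median interaction was 1.28 upstream and 0.15 downstream, and 1 of the downstream probes was also called. As the 37 were chosen by their upstream value, a lower downstream median is partly built in. Of the 54 lower calls, 0 were upstream and 3 downstream probes.

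Single genes, chosen after their values were seen, ran across unrelated functions. Gmppa, of the GDP-mannose pathway, had 1.88 at 112 and 0.13 at 1272. Hspa8, the constitutive Hsc70 chaperone, had 1.30 ± 0.25 at 25 and 0.07, -0.17 and -0.18 at 1881, 1921 and 2044. Phgdh, the entry enzyme of serine synthesis, had 1.10 ± 0.23 at 241 and -0.32 at 1477. Neither Hspa8 nor Phgdh is among the 754 transcripts. The array annotation thus places the probes set against each other here on different transcript records, and their starts are not on a common scale. The Hspa8 probes at 25 and 2044, again as their first 30 bases, are these.
Hspa8 probe at 25: tgcctggcatttgtgtggtctcgtcgtcag
Hspa8 probe at 2044: gtcagtccaagaagaaggtgtagctttgtt
The probe at 25 differed by 0.15, -0.50 and -0.65 in WT and by 1.02, 0.82 and 1.03 in Mapk9 KO. The probe at 2044 differed by 0.46, 0.62 and 0.59 in WT and by 0.34, 0.54 and 0.28 in Mapk9 KO.

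The same contrast can be read per pair. The median over the 754 transcripts of the upstream minus the downstream change was 0.02, -0.134 and -0.143 in the WT pairs and 0.205, 0.102 and 0.163 in the Mapk9 KO pairs, so the genotypes did not overlap. The part of this shift in the positive interactions was not tested, and RNA quality values of the arrays were not analysed here. With only the probe of the largest start kept per transcript, 0 of 17128 probes passed in the paired fit. Among those detected on all arrays, 92 of 11379 (67 higher, 25 lower) passed. A lone probe of a transcript record stayed in wherever it lies, as the named Calu probe did. This setting therefore cannot separate the positional shift from the calls.

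**Figure D3:**
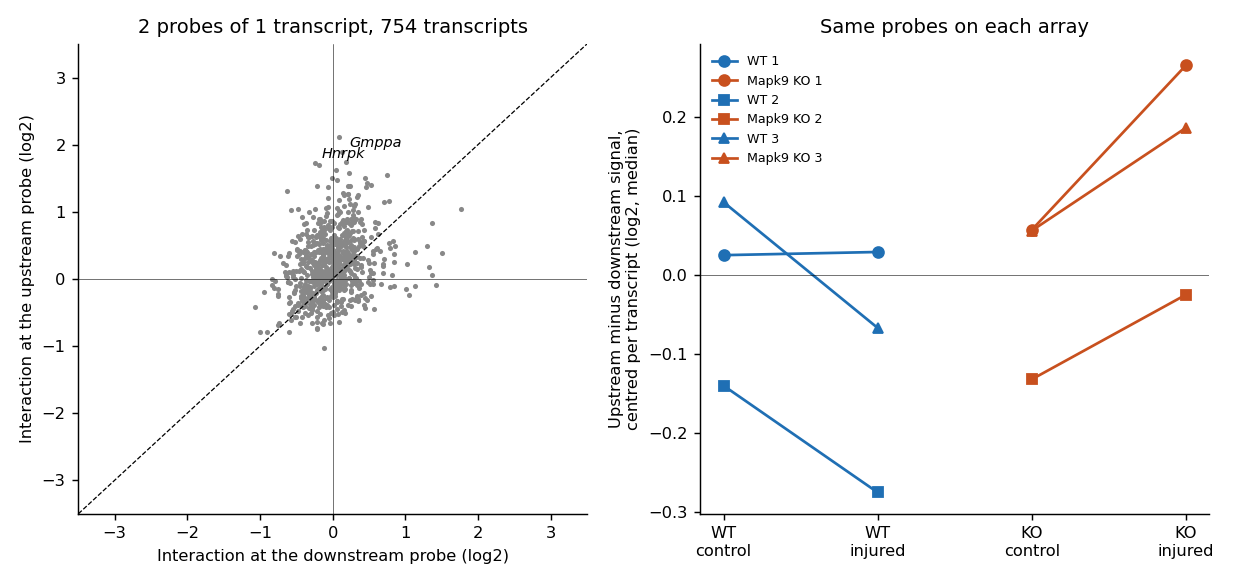
Left, interaction (log2) at the upstream probe (y axis) against that at the downstream probe of the same transcript (x axis), 754 transcripts; the dashed line marks equality and most points lie above it. Right, median over these transcripts of upstream minus downstream signal on each array, centred per transcript, with lines joining arrays of the same replicate number: the lines rise in Mapk9 KO, and fall in WT pairs 2 and 3.

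Several of the lower named probes belong to genes expressed in muscle, and a longer list of muscle genes is counted further on. Fabp3, the fatty acid binding protein of heart and muscle, read 9.77, 9.81 and 12 in WT control, 7.39, 8.13 and 9.10 in WT injured, 12.04, 12.37 and 11.89 in Mapk9 KO control and 7.29, 7.77 and 7.01 in Mapk9 KO injured arrays. It was downregulated in both genotypes (by 2.32 on the log2 scale in WT, adjusted p = 1.14e-04, and by 4.74 in Mapk9 KO, adjusted p = 3.16e-06, limma), and the interaction was -2.42 ± 0.31. The injured arrays of the genotypes overlapped, while WT control arrays 1 and 2 lay below all Mapk9 KO control arrays.

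Myl2, the regulatory light chain of slow and cardiac myosin, read 7.78, 6.61 and 11.28 in WT control, 6.48, 8.04 and 9.11 in WT injured, 12.73, 12.91 and 12.06 in Mapk9 KO control and 6.12, 7.26 and 5.71 in Mapk9 KO injured arrays. The WT pairs differed by -1.31, 1.43 and -2.17, and the Mapk9 KO pairs by -6.60, -5.65 and -6.34. The interaction was -5.52 ± 0.78 (adjusted p = 0.0535, limma), the lowest of the named probes. Tnnc1, the troponin C of slow and cardiac muscle, had an interaction of -3.89 ± 0.59, and Tnnt1, the slow troponin T, of -2.86 ± 0.40. In both, the WT pairs lay on both sides of 0 and all Mapk9 KO pairs went down by more than any WT pair. Tmod4, a tropomodulin of skeletal muscle, had -2.25 ± 0.37, Mb, the oxygen-binding myoglobin, -2.27 ± 0.38, and Pkia, an inhibitor of protein kinase A, -2.0 ± 0.30.

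Outside muscle, Mup1, a major urinary protein, had an interaction of -4.12 ± 0.56. It read 8.90, 7.38 and 10.05 in WT control and 10.99, 11.36 and 12.67 in Mapk9 KO control arrays, was detected on 1 WT injured and no Mapk9 KO injured array, and had an interaction of -3.06 with dim values set to the limit. Pxmp2, a channel of the peroxisomal membrane, was detected on no injured array of either genotype, so its interaction of -1.66, or -1.10 at the limit, rests on signals under background in both genotypes. Hist1h4h (now H4c8), a histone H4 gene, read 10.39, 11.10 and 10.31 in WT control, 10.52, 11.05 and 10.50 in WT injured, 11.10, 11.53 and 11.15 in Mapk9 KO control and 10.03, 10.42 and 9.89 in Mapk9 KO injured arrays. Its WT pairs hardly differed (0.14, -0.05 and 0.18) and its Mapk9 KO pairs went down by similar amounts (-1.07, -1.12 and -1.26), with an interaction of -1.24 ± 0.20.

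**Figure D4:**
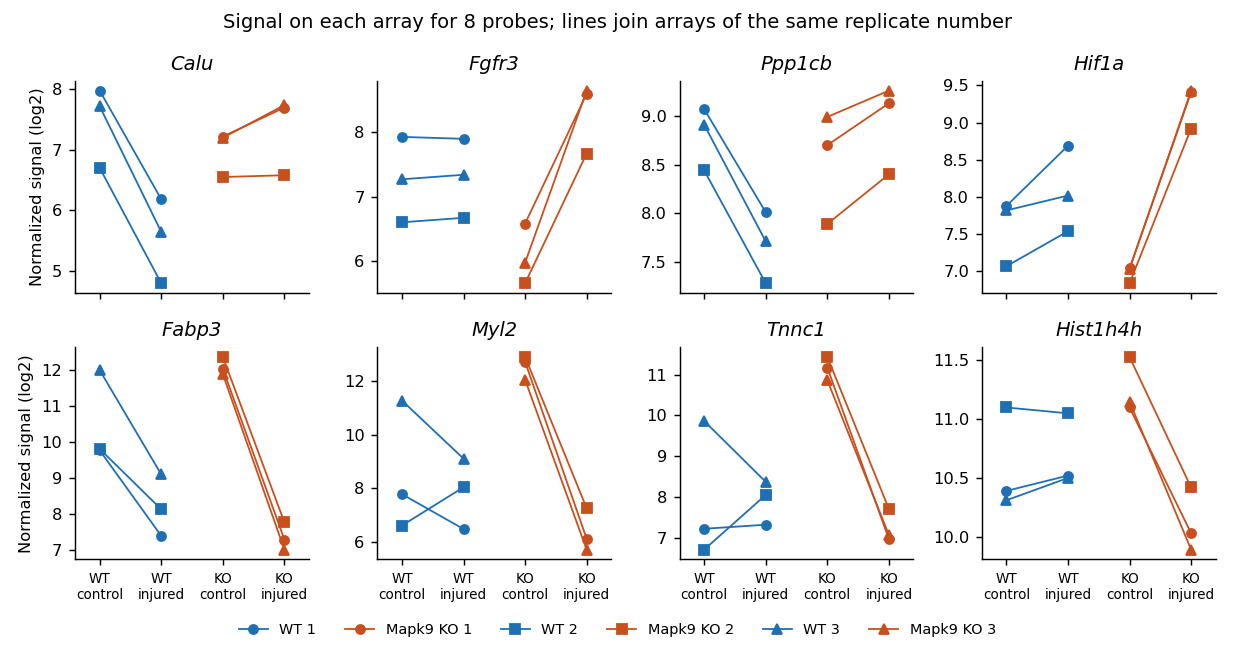
Normalized signal (log2) on each of the 12 arrays for 8 probes, with lines joining the control and injured arrays of the same replicate number. Fgfr3 and Hif1a rise steeply in Mapk9 KO; for Fabp3, Myl2 and Tnnc1 the control arrays differ more between genotypes than the injured arrays do.

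The wider lists put these genes in context, and for each list the probe with the highest mean stood for a gene. Over all genes read this way, 13.4% had an unadjusted p under 0.05, 6.68% higher and 6.76% lower, and the median interaction was -0.04. Of the 10730 genes whose probe was detected on all arrays, 1.20% passed an adjusted p of 0.05 among such probes, 0.792% higher and 0.410% lower. Of 25 skeletal muscle genes, 17 were lower and 0 higher at an unadjusted p under 0.05, which is the level of the counts in the lists that follow. In the same list, 4 of the 18 detected on all arrays passed an adjusted p of 0.05 under the filter on detection, 0 of the 25 did so under the replicate block over both genotypes, and the median interaction was -1.65. The largest interaction of the list was that of Myh2, a fast myosin heavy chain, at -3.25 ± 0.62, with differences of -3.35, -1.20 and -3.33 in WT and -6.47, -4.83 and -6.33 in Mapk9 KO. The list's mean was 7.32 to 9.29 on WT injured and 7.66 to 8.87 on Mapk9 KO injured arrays, so the injured arrays overlapped, while the control ranges given above did not. In bulk tissue, fewer cells of a type and less RNA per cell cannot be told apart. With the muscle mean as a covariate, 0 probes passed for the interaction, as without it, and the smallest adjusted p was 0.489. The estimates of the 9 higher named probes were then 1.38 to 2.10, against 1.45 to 2.28 without the covariate, and those of the 10 lower ones -3.07 to -1.15, against -5.52 to -1.24.

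In the metabolic lists, most members had an unadjusted p above 0.05. Of 28 glycolysis and gluconeogenesis genes, 8 were lower and 1 higher (median -0.20). The lower ones held the muscle isoforms Eno3, Pgam2, Pfkm and Fbp2, but also Aldoa, Tpi1, Gapd (now Gapdh) and Ldh2 (now Ldhb), with -1.40, -0.79, -0.70 and -1.09. The higher one was Hk1, a hexokinase, at 1.07 ± 0.29 (unadjusted p = 0.0056, limma). Of 27 arginine and proline metabolism genes, 4 were lower, among them the creatine kinases Ckmt2 and Ckm, and 1, Asl, was higher (median -0.10).

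Markers of other cells of the joint and marrow also leaned to lower values. Of 9 adipocyte genes, 4 were lower (median -0.75), led by Cfd, the serine protease adipsin, at -2.57 ± 0.50. The list's mean was 8.09 to 9.39 in WT control and 8.86 to 10.30 in Mapk9 KO control arrays, and 6.81 to 7.11 and 6.73 to 6.93 in the injured arrays. Of 14 neutrophil genes, 6 were lower and 14 had negative values (median -0.53), and of 10 lymphocyte genes 5 were lower (median -0.67). NE (now Elane), neutrophil elastase, differed by 2.38, 1.81 and 1.70 in WT and by 1.29, 1.06 and 0.95 in Mapk9 KO. Igl-5 (now Igll1), of the surrogate light chain of B cell precursors, differed by 0.80, -0.16 and 0.98 in WT and by -0.73, -0.91 and -0.74 in Mapk9 KO. The neutrophil mean was 11.65 to 12.42 in WT control, 12.23 to 12.55 in Mapk9 KO control, 13.18 to 13.45 in WT injured and 12.98 to 13.46 in Mapk9 KO injured arrays. The part of these cells in the interaction was not tested.

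The remaining tissue lists had few genes below an unadjusted p of 0.05. Erythroid genes had 1 of 10 lower (Gata1), macrophage genes 1 of 14 (C1qa), osteoblast and osteoclast genes 1 of 14 (Acp5), and fibroblast, tendon and synovium genes 2 of 10 (Col1a1 and Col1a2), with medians of -0.47, -0.39, -0.44 and -0.23. Endothelial genes had 1 higher (Tie1) and 2 lower (Vwf and Cldn5) of 12, with a median of -0.06. Of 4 sex-linked transcripts measured, Eif2s3y was higher at 0.95 ± 0.42 (unadjusted p = 0.0491, limma), and the median was 0.49.

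**Figure D5:**
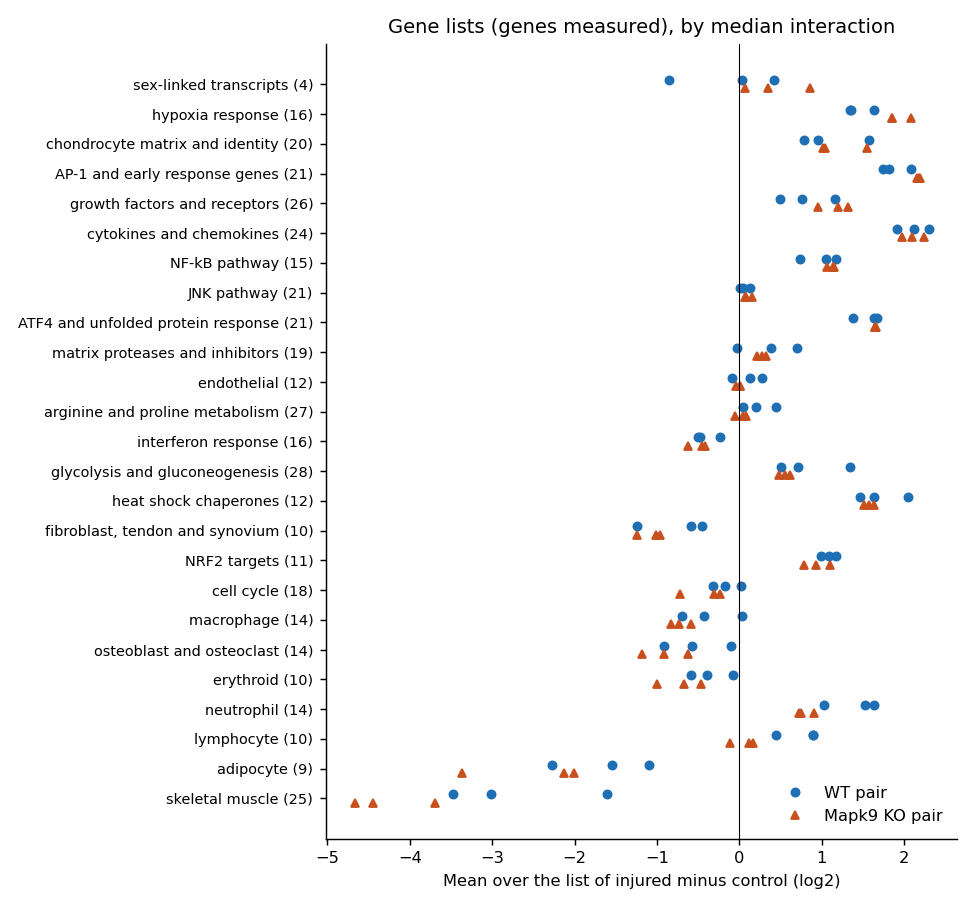
Mean over the measured genes of each list of injured minus control (log2), 1 point per pair (circles WT, triangles Mapk9 KO), ordered from the highest median interaction at the top to the lowest at the bottom. The pairs of the genotypes do not overlap for hypoxia response and AP-1 and early response genes, where Mapk9 KO lies higher. They also do not overlap for skeletal muscle, neutrophil and lymphocyte genes, where it lies lower. For comparison, 21.6% of all single probes did not overlap.

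Genes of the hypoxia response leaned the other way: 5 of 16 were higher and 0 lower, with a median interaction of 0.43 and medians of 0.97 in WT and 2.12 in Mapk9 KO. Hif1a, the oxygen-regulated subunit of the hypoxia-inducible factor, differed by 0.81, 0.47 and 0.19 in WT and by 2.37, 2.08 and 2.40 in Mapk9 KO. Its interaction was 1.79 ± 0.23, with an adjusted p of 0.0535 in the paired fit, 0.0287 with the replicate block over both genotypes and 0.00743 among probes detected on all arrays (limma). Egln1, the prolyl hydroxylase that marks HIF for degradation, had 1.31 ± 0.24, and Car9, a carbonic anhydrase and classical HIF target, 1.07 ± 0.22. No Mapk9 KO control array detected either of them, and both came to 1.12 and 0.79 with dim values set to the limit. Adm and Vegfa, a vasodilator peptide and the main angiogenic factor, had 1.01 and 0.66. Other HIF targets did not separate: Egln3, Ddit4 and P4ha1 had interactions of 0.06, -0.04 and -0.05.

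Of 26 growth factors and receptors, 6 were higher and 0 lower (median 0.17). Beside Fgfr3 they were Cyr61 (now Ccn1), a matricellular protein (1.39 ± 0.29), Fgf2, which is stored in the pericellular matrix of cartilage (1.71 ± 0.37), Grem1, a BMP antagonist (1.00 ± 0.26), Has2, a hyaluronan synthase (1.07 ± 0.28), and Bmp2 (1.37 ± 0.43). Grem1 differed by -0.91, -0.47 and -0.56 in WT and by 0.14, 0.09 and 0.81 in Mapk9 KO. Fgf2 was detected on 6 arrays and Bmp2 on 4, and both came down with dim values set to the limit, to 1.04 and 0.59. The probe for Cyr61 was among the upstream probes listed above, with 1.39 at 690 and 0.53 at 1702.

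The JNK pathway and its AP-1 targets are what the deleted kinase acts on. Of 21 JNK pathway genes, 0 had an unadjusted p under 0.05, and the median interaction was 0.00 (smallest unadjusted p 0.107, for 5530400B01Rik, now Dusp8, a JNK phosphatase, at -0.55 ± 0.30). Mapk8, which encodes JNK1, had 0.34. Of 21 AP-1 and early response genes, 4 were higher and 0 lower (median 0.17), and none passed an adjusted p of 0.05 under the filter on detection. Fos differed by 2.03, 2.93 and 2.00 in WT and by 3.76, 3.41 and 3.05 in Mapk9 KO, with an interaction of 1.09 ± 0.31 (adjusted p = 0.162, limma). Fosb, Nr4a2 and Ier3 had 1.18, 0.62 and 0.60. Another Fosb probe, detected on all arrays, had 0.29 ± 0.29 (unadjusted p = 0.335, limma). Jun, Junb and Atf3, which were upregulated in both genotypes, had interactions of 0.11, 0.17 and 0.14, although Atf3 was detected on no control array.

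Cytokine, protease and chondrocyte lists had few members under an unadjusted p of 0.05. Of 24 cytokines and chemokines, 2 were higher (Il6 and Cxcl10, at 0.60 and 0.75) and 2 lower (Csf2 and Cxcl12, at -1.89 and -0.48), with a median of 0.10. Another probe of Cxcl12, a chemokine for CXCR4, had 0.83 ± 0.32. Csf2, a myeloid growth factor, and Il6 were each detected on 2 arrays only, and with values set to the limit they had -0.58 and 0.23. Of 19 matrix proteases and inhibitors, Adamts1 was higher (1.36 ± 0.39, or 0.55 at the limit, and -0.17 at its other probe) and Mmp13, a collagenase, lower (-0.63 ± 0.25 at 2453), with a median of -0.04. The other Mmp13 probes had the opposite sign, with 1.31 ± 0.33 at 1261 and 0.80 ± 0.24 at 2332 (unadjusted p = 0.00323 and 0.00984, limma), so this gene has no single direction. Of 81 list genes with an unadjusted p under 0.05, 26 had another probe, which was of opposite sign in 5 genes. Of 20 chondrocyte genes, Col10a1 was higher (0.85 ± 0.32) and Chad and Col2a1, which encode chondroadherin and the main cartilage collagen, lower (-0.89 ± 0.32 and -0.51 ± 0.22), with a median of 0.19. None of these 3 passed under the filter on detection.

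Stress response lists had 0 to 2 members under that level. ATF4 and unfolded protein response genes had 2 of 21 higher (Phgdh and Trib3, median -0.01), NF-kB pathway genes 1 of 15 (Nfkbiz, 0.96 ± 0.23, median 0.08), heat shock chaperones 1 higher and 1 lower of 12 (Hspa1a, 0.66, and Hsp105, -0.52, median -0.21), and interferon response genes 2 of 16 higher (Ifit2 and Cxcl10, median -0.19). Of 11 NRF2 targets and 18 cell cycle genes, 0 had an unadjusted p under 0.05, with medians of -0.23 and -0.29, and their smallest p belonged to Nfe2l2 (0.35) and Mcm2 (-0.53).

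Mapk9 itself was lower on every Mapk9 KO array than on any WT array, at both of its probes, and its array probes differ in what they show.
Mapk9 probe at 900: gtgggttgcatcatgggagagctggtgaaa
Mapk9 probe at 4211: gtcccatgccgatagtcagtacaggtgtga
The probe at 900 read 7.29, 6.23 and 7.09 in WT control and 6.03, 5.03 and 5.81 in WT injured arrays, and was detected on no Mapk9 KO array, where it read between 3.42 and 4.28. Its interaction of 0.64 ± 0.19 has no interpretable size for that reason. The probe at 4211 was detected on all arrays and read 10.88, 10.90 and 10.50 in WT control, 10.30, 10.57 and 10.05 in WT injured, 9.14, 9.28 and 9.15 in Mapk9 KO control and 8.75, 8.78 and 8.69 in Mapk9 KO injured arrays. Transcript that holds this sequence was thus still detected in the Mapk9 KO arrays, at a lower level. The change post injury averaged -0.45 ± 0.12 (SD, n = 3) in WT and -0.45 ± 0.05 in Mapk9 KO, with an interaction of 0.00 ± 0.19 (SE). Of 39 measured genes within 2 Mb of Mapk9, 2 were higher and 4 lower at an unadjusted p under 0.05, with a median interaction of -0.02.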

How the data were processed

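RNA of murine hip cartilage was hybridised to Illumina BeadChips. The authors deposited raw signal intensities for 45281 probes with a detection p-value each, and log2 values for 21004 probes, background-corrected with negative control probes and normalized with vsn; how the 21004 were chosen is not given in the sources used here. Samples were grouped by their labels. The paired differences were fitted with limma 3.58.1 in R 4.3.3 (lmFit, eBayes, 4 residual and 4.83 prior degrees of freedom), and p-values were adjusted over all probes (Benjamini-Hochberg). Injury calls also needed a fold change above 2.

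Deviations from group means correlated between 0.153 and 0.390 for 18 array pairs with the same number and between -0.289 and 0.0825 for 36 others. Among the 18, the median was 0.269 for 6 pairs of the same genotype and 0.249 for 12 across genotypes. The numbers thus mark sets of arrays across both genotypes. These values do not single out control and injured arrays within a genotype as pairs. Deviations cancel out within a group, so the low values for other numbers are partly built in. In simulated data over 21004 probes, the fit recovered 11.2% of interactions of log2 size 1 and 67% of size 2.

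Named genes were Mapk9, the 10 probes per direction described above, the member of each list with the smallest p, the 5 largest rises and falls, and probes called in opposite directions. The result of 1 gene under this rule is not reported here. Members and lists were chosen with earlier results of these data known. Current names came from a RefSeq table (assembly GRCm38.p6, used for names and neighbours only) by accession (14489 probes), symbol (1634), gene ID (59) or older symbol (1952), and 2870 kept the file's name. The number of arrays limits the precision. Alternatives covered pairing, scaling, background, dim probes, test, threshold and each pair left out.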

Additional observations from a re-analysis of the deposited data

Results flagged for a closer look

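For 6 of the 19 named probes, every WT pair went one way and every Mapk9 KO pair the other. Each went down in WT and up in Mapk9 KO: Calu (interaction 2.28), Rab7 (1.76), Ppp1cb (1.54), Hnrpk (1.72), Prosc (1.89) and Tspyl1 (1.62). The test of each difference, the paired limma interaction, gave an adjusted p of 0.0535 for all 6, so none passed there. With the replicate number as a block over both genotypes the adjusted p was 0.0137 for Calu, 0.0287 for Ppp1cb, Hnrpk and Prosc, 0.0259 for Tspyl1 and 0.0503 for Rab7, and among probes detected on all arrays it was 0.00743 for Ppp1cb, Hnrpk and Tspyl1 (limma). Over all probes 3.13% had opposite signs in this sense. The 19 were chosen by small p and non-overlapping differences, which favours opposite signs, so that share is no like reference. Other probes of Calu had 0.07 and -0.27, of Hnrpk 0.37 and -0.25, and of Rab7 1.17 and 0.16. Those of Ppp1cb, which overlaps, and Prosc had 1.75 and 1.82. No WT injured array detected Prosc. Dixon's test for a sample far from the others was not run on groups of 3.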

How the results depend on the processing

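For the interaction, the count of 0 remained without a replicate block, with differences of differences under a replicate block, the label code number as a block, neqc, array medians subtracted, 1 probe per gene, an added fold limit and the muscle covariate. It became 112 with the replicate block over both genotypes (1 as a random block) and 37 with quantile scaling without background correction. With probes detected on at least 3 arrays it was 36, on all 12 it was 222, and with a variance trend 86. A Student's t-test on the paired differences called 1. The count was 310 at an adjusted p under 0.1 and 3149 at an unadjusted p under 0.05 (limma). Chosen after the data were seen: 140 with dim values set to the limit and 2687 by that t-test without adjustment. Likewise chosen afterwards: 254 with block and all-array filter and 92 with that filter and 1 probe per transcript. Leaving out 1 pair gave 0 to 114, or 0 to 427 under the filter.

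Injury calls in WT and in Mapk9 KO became 1211 and 1755 with quantile scaling and 7690 and 8870 without the fold limit. On all arrays they were 1715 and 2147 (1714 and 2147 with the block, 1407 and 1769 with 1 probe per transcript). A Student's t-test on the 3 paired differences of each genotype called 3 and 434. With the muscle covariate the counts were 146 and 0, for changes extrapolated to a muscle change of 0. The muscle list's mean changed by -3.48, -1.61 and -3.02 in the WT pairs and by -4.45, -3.69 and -4.67 in the Mapk9 KO pairs. These counts thus do not give the part of muscle in the injury response. The replicate block changed no other injury call count by over 1.5 times. Of 601 values of 21 named probes, 396 kept sign and side of the threshold, 142 came to an adjusted p under 0.05, 58 passed a looser threshold alone and 5 changed sign, all at the Mapk9 probe near 0 (-0.04 with array medians subtracted, and -0.06 to 0.06 with 1 pair left out). The cause was not tested. Signal over background limits the probes that some arrays did not detect.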
